A study of Homo sapiens with 3 samples.

Results

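The genes described here form the sealing and adhesive contacts between epithelial cells: the claudins CLDN1, CLDN2, CLDN4, CLDN6, CLDN7, CLDN12 and CLDN14, occludin (OCLN), the scaffold TJP1 and E-cadherin (CDH1). They were taken as a named list of 10 genes, and every probe set that the platform annotation pairs with exactly 1 gene symbol was used. Of the 10 genes, 9 had such a probe set, 1 each, out of 18417 genes in all. The probe set of OCLN also carries the symbol OCLNP1, so no value is given for OCLN.

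The study measured total RNA of HepG2, a long-established line from a human liver tumour, on Affymetrix arrays. It had 3 groups with 1 array each: untreated cells, cells given graphene oxide (GO) and cells given reduced graphene oxide (rGO), a form from which part of the oxygen groups has been removed. Both exposures lasted 24 h, each at the EC20 of the material, a dose set from viability assays at a 20% effect; concentrations are not stated, so the values of GO and rGO are set side by side without a comparison between the materials. No group had a replicate, so no difference has an error or a test, and precision is limited by having 3 arrays.

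Tight junctions close the space between neighbouring epithelial cells near their apical side. Claudins are small membrane proteins that span the membrane several times and build the strands of the seal, some as barriers and some as ion-selective pores, while occludin joins these strands and TJP1 ties them to actin. E-cadherin holds cells together just below, in the adherens junction, and its presence is the usual mark of an epithelial state. In liver these contacts separate bile from blood, and HepG2 cells form bile canaliculus-like spaces between neighbours.

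All values are log2 expression values. A gene was said to pass the level filter where the mean of its 3 values was at or above 6.66, the 40th percentile of all genes, which left 11050 genes; under it, background can mask a difference. Of the 9 measured genes, 6 passed (CLDN1, CLDN4, CLDN6, CLDN12, TJP1 and CDH1) and 3 did not (CLDN2, CLDN7 and CLDN14). Levels were compared between arrays for the same gene only, since probe sets of different genes do not share a scale. In RNA of a whole culture, more cells with a transcript and more transcript per cell cannot be told apart.

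The 250 bases before the annotated transcription start are shown for the claudins with the largest and with smaller GO differences and for CLDN7, which stayed under the level filter, so that the regulatory sequence can be read beside the values. They are RefSeq sequences on GRCh38.p14, on the strand of the gene. Capitals mark matches, on either strand, to any of 5 short motifs: CACCTG (the E-box bound by the SNAI and ZEB repressors), AACNGGTT (GRHL factors), GGAATG (TEAD factors), GGGCGG (the SP1 GC box) and TATAAA (the TATA box). CDH1 was not among the sequences used here.

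CLDN6, chr16:3018184-3018433, minus strand: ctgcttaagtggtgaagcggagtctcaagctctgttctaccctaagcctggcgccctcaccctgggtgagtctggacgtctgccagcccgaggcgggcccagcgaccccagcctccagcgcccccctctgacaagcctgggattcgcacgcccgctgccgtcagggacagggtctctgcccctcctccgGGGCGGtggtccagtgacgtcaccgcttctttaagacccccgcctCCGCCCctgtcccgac
CLDN4, chr7:73830746-73830995, plus strand: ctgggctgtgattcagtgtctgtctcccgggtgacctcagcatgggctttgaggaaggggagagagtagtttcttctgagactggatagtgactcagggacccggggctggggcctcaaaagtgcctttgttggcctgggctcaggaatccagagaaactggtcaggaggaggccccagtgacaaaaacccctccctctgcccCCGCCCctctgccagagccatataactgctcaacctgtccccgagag
CLDN1, chr3:190322447-190322696, minus strand: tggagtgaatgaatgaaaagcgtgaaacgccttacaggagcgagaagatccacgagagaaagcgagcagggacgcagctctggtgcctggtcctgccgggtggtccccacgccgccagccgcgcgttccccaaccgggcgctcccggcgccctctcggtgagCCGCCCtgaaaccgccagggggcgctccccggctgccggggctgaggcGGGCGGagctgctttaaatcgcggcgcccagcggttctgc
CLDN7, second of 2 starts, chr17:7262479-7262728, minus strand: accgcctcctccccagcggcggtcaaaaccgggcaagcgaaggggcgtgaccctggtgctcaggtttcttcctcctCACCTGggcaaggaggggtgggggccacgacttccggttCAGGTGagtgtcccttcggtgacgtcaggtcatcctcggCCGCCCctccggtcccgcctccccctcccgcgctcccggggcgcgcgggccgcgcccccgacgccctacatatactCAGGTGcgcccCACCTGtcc

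The CLDN6 stretch holds 2 GC boxes, 61 and 16 bases before the start, and the CLDN1 stretch also holds 2, at 88 and 40 bases. The CLDN4 stretch holds 1, at 47 bases. Such a GC box is common, present in 53.7% of the 22198 windows of the same length before protein-coding genes. The CLDN7 stretch shown holds 4 CACCTG matches, at 174, 135, 20 and 9 bases, 2 on each strand. The window of the other CLDN7 start holds none of the 5 motifs, and the start shown was picked for its matches. That motif was found in 17.0% of all windows and in 3 of the 15 windows of the 8 genes with a sequence (CLDN7, CLDN14 and TJP1). AACNGGTT and TATAAA were in none of the 15 windows, against 1.42% and 9.01% of all windows, and GGAATG was in 2 windows, both of CLDN14, against 10.5%. These matches describe the letters of the windows only.

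CLDN6 and CDH1 were about 2-fold higher with GO, and the other claudins and TJP1 past the filter were higher by less. CLDN6, a claudin of embryonic epithelia that is often found in tumours, stood at 8.92 in untreated cells, 9.97 with GO and 8.75 with rGO. The GO array was the high one, and the rGO array lay slightly under the untreated array. The GO difference was 1.05, a fold of 2.07, and the rGO difference was -0.17.

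CDH1 stood at 7.84 in untreated cells, 8.84 with GO and 8.04 with rGO. Both exposed arrays were above the untreated array, GO by 0.996 (1.99-fold) and rGO by 0.20 (1.15-fold). CDH1 thus lay just under the size of 2-fold (a difference of 1) by which genes were counted, and CLDN6 just over it.

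**Figure D1:**
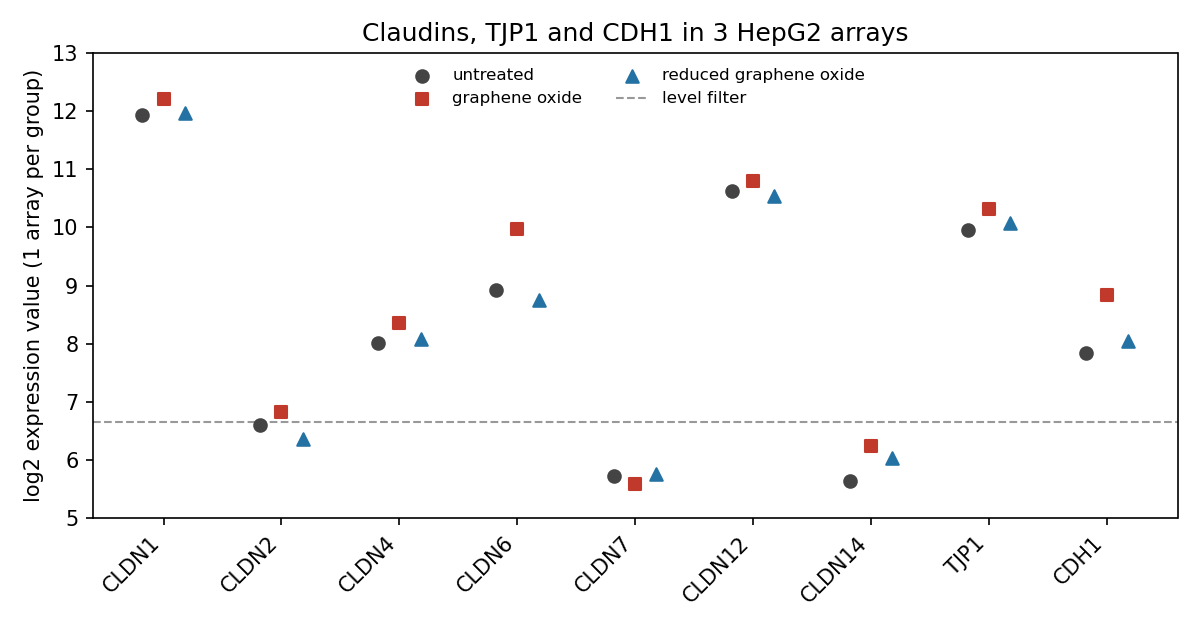
Log2 expression value of each of the 9 measured genes in the 3 arrays, 1 point per array, with the level filter as a dashed line. The GO point is the highest of the 3 for every gene but CLDN7, and the gap is widest for CLDN6 (9.97 against 8.92) and CDH1 (8.84 against 7.84).

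Among the barrier claudins, CLDN1, a claudin of hepatocytes that also serves hepatitis C virus as an entry factor, stood at 11.94 in untreated cells, 12.22 with GO and 11.96 with rGO. Its GO difference was 0.28 and its rGO difference 0.02. CLDN4, which in liver is known from bile duct epithelium and is a receptor of a clostridial enterotoxin, stood at 8.01, 8.35 and 8.08 in the same order, a GO difference of 0.34 and an rGO difference of 0.06. For both genes the untreated and rGO arrays lay close together and the GO array above them.

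CLDN12, a claudin that lacks the usual scaffold-binding tail, stood at 10.63 in untreated cells, 10.80 with GO and 10.53 with rGO, differences of 0.17 and -0.10. This was the smallest GO difference of the 6 genes past the filter. TJP1, which encodes the zonula occludens scaffold that claudins and occludin bind, stood at 9.96, 10.32 and 10.07, with differences of 0.36 and 0.11.

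The 3 claudins under the level filter did not share a pattern. CLDN2, which forms pores for cations and water, stood at 6.60 in untreated cells, 6.84 with GO and 6.36 with rGO, differences of 0.23 and -0.24. CLDN7 was the one gene of the 9 with a lower value after GO, 5.72 in untreated cells against 5.59, and stood at 5.76 with rGO. CLDN14, a barrier claudin of the inner ear and kidney, stood at 5.64, 6.24 and 6.04, so both exposed arrays were above the untreated one, by 0.60 and 0.40. At these levels background can mask or distort a difference, and whether these 3 genes were expressed was not tested.

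Set beside all 11050 genes past the filter, 1 of the 6 (CLDN6) was at least 2-fold higher with GO, where 0.253% of all genes were. At least 1.5-fold higher were 2 of the 6 (CLDN6 and CDH1), against 1.91% of all genes, and at least 1.5-fold lower were 0 of the 6, against 4.23%. All 6 had a GO difference above 0, against 51.1% of all genes. The median GO difference of the 6 was 0.35, whereas that of all genes past the filter was 0.01, and their range ran from 0.17 to 1.05. The genes were listed with earlier results of these arrays known, so these counts describe the list and are no independent support for a shared direction.

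The scatter that these differences stand in can be read from the other genes. Differences between GO and untreated had a robust SD (the scaled median absolute deviation) of 0.244 over the genes past the filter, which mixes any effect of GO with variation between dishes and arrays. In 296 genes with 2 probe sets past the filter, the GO difference of 1 probe set scattered with a robust SD of 0.0928. This is read from 2 probe sets of a gene on the same arrays. Variation that both share, such as that between dishes, is left out. CLDN6 ranked 26th and CDH1 29th from the top of the 11050 genes. Among 2557 genes within 0.5 of its mean level, CLDN6 had 5 others at or above it, and CDH1 had 11 among 3069. TJP1, CLDN4, CLDN1 and CLDN12 ranked 851st, 958th, 1396th and 2678th. The GO difference of CLDN12, 0.17, was smaller than the robust SD of all genes, and that of CLDN1, 0.28, was slightly larger. With 1 dish per group, none of the differences can be separated from variation between dishes.

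**Figure D2:**
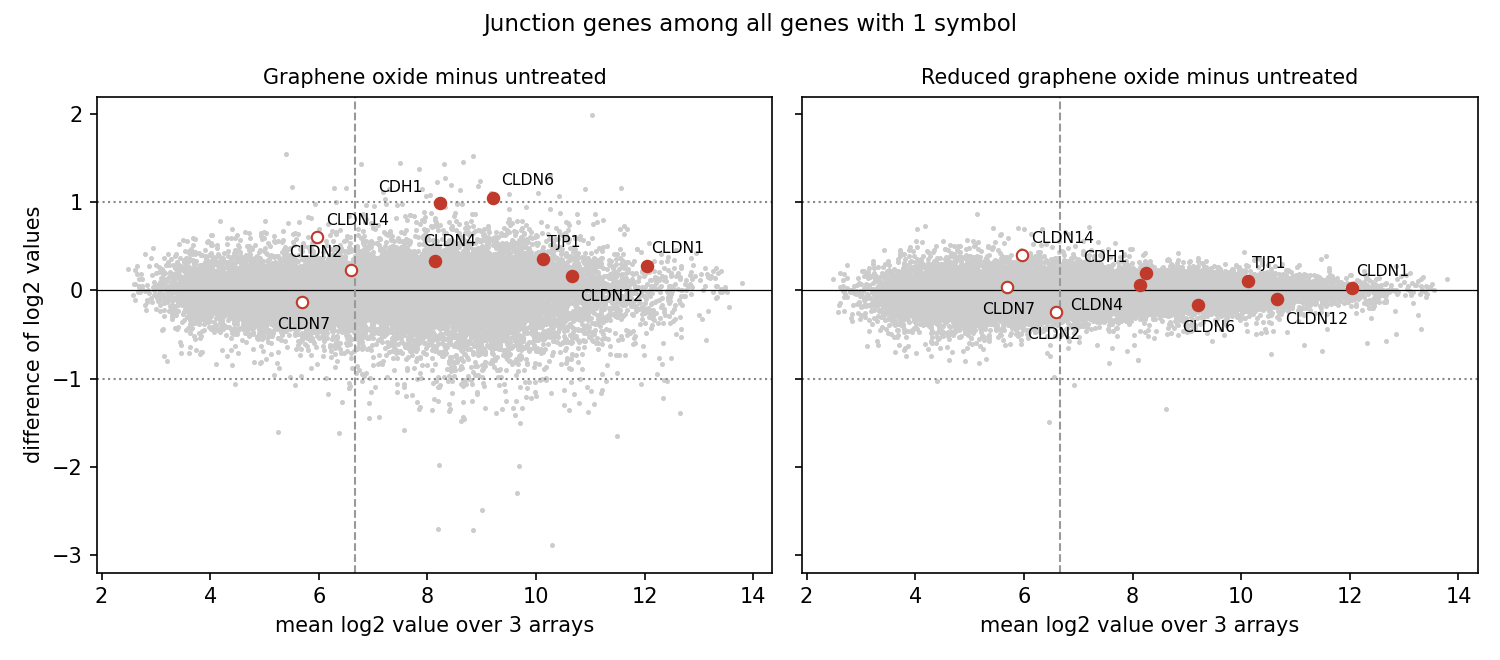
Difference of log2 values against the mean log2 value over 3 arrays for all 18417 genes (grey), with GO on the left and rGO on the right; red points are the named genes, open where under the level filter (dashed line), and dotted lines mark 2-fold. CLDN6 (1.05) and CDH1 (0.996) lie at the upper edge of the cloud with GO, and all points past the filter lie between -0.17 and 0.20 with rGO.

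With rGO the differences of the same genes were small. None of the 6 was at least 1.5-fold higher or lower, sizes that 0.0271% and 0.127% of all genes reached. Of the 6, 4 were above 0, against 46.8% of all genes, and the median was 0.04 with a range from -0.17 (CLDN6) to 0.20 (CDH1). CDH1 ranked 448th from the top of all genes, and the robust SD of all rGO differences was 0.116. Both comparisons use the same untreated array, so the GO and rGO differences of a gene are not independent.

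The genes whose pair of differences lay nearest to that of CDH1, by Euclidean distance over the 3 arrays, were ARID5B, SPAG4, CAVIN2, PFKFB4 and TAGLN2, at distances from 0.03 to 0.08. SPAG4 stood at 6.49 in untreated cells and 6.64 with rGO, both under the filter level, and at 7.46 with GO. It passed the filter only through the GO array. ARID5B, a DNA-binding regulator of transcription, stood at 0.98 with GO and 0.23 with rGO. TAGLN2, an actin binder, stood at 1.07 and 0.18, and PFKFB4, a regulator of glycolysis, at 1.04 and 0.25. The genes nearest to CLDN6 were CCN1, DEPP1, TNS4, SLC2A3 and UBASH3B, at distances from 0.08 to 0.17. CCN1, a secreted matrix protein, stood at 0.97 with GO and -0.14 with rGO, and TNS4, a tensin of focal adhesions, at 1.03 and -0.01. A distance over 3 arrays is a coarse measure of likeness.

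**Figure D3:**
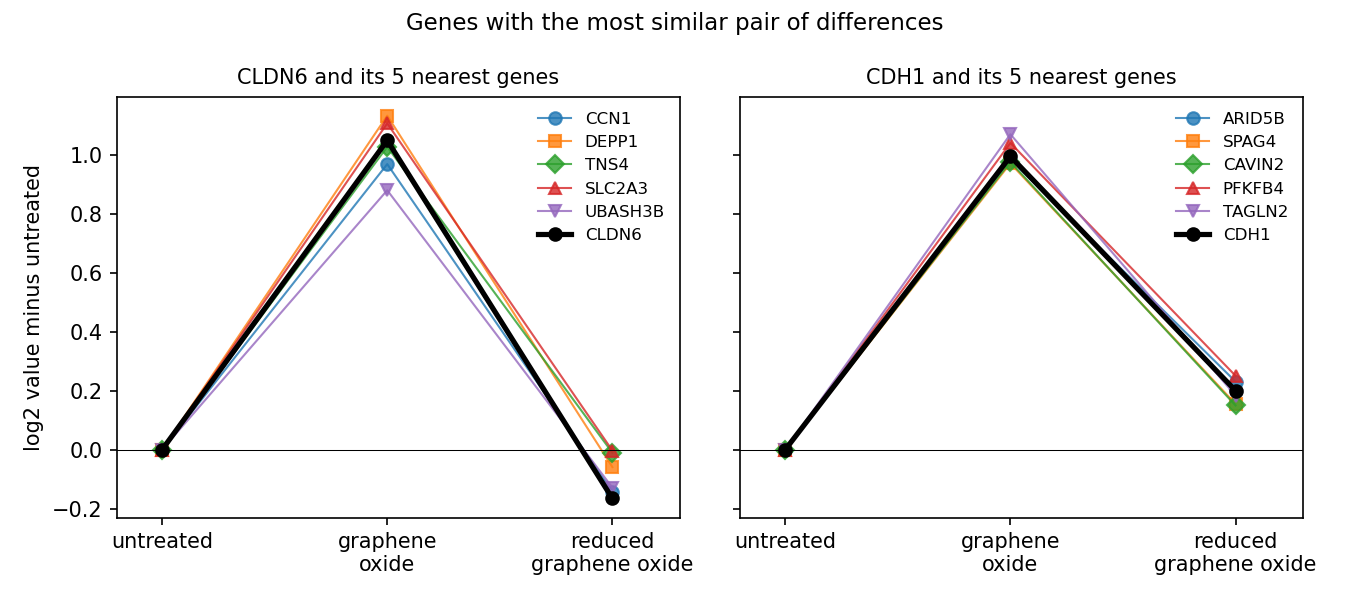
Log2 value minus that of the untreated array for CLDN6 (left, black), CDH1 (right, black) and the 5 genes nearest to each. The genes were chosen for their nearness in these same differences, so the curves run together by choice. The 5 shown for CDH1 lie between 0.97 and 1.07 with GO, and of these SPAG4 passed the level filter only through its GO value.

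Several of these genes have close relatives beside them in the genome. CLDN3, a barrier claudin that adjoins CLDN4 on chromosome 7, stood at 8.05 in untreated cells, 8.40 with GO and 8.14 with rGO, differences of 0.36 and 0.09 beside 0.34 and 0.06 for CLDN4. CLDN9, which adjoins CLDN6 on chromosome 16, stood at 6.80, 6.83 and 6.69, a GO difference of 0.02 beside 1.05. CDH3, the gene of P-cadherin next to CDH1, was under the filter at 5.69, 5.60 and 5.62. CLDN16, the neighbour of CLDN1 on chromosome 3 and a pore claudin of the kidney, was also under the filter, at 5.54, 5.55 and 5.50.

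Of 19 other claudin and claudin-like genes listed, 16 were measured and 7 passed the filter. None reached 1.5-fold in either direction with GO, sizes that 1.91% (higher) and 4.23% (lower) of all genes past the filter reached. Above 0 were 3 of the 7, against 51.1% of all genes, 4 were below 0, and the median was -0.07. The largest differences were those of CLDN3, CLDN5, a claudin of blood vessels, at 0.25, and CLDN19, a claudin of the kidney, at -0.23. These 7 genes had no common direction with GO, and their share above 0 was near that of all genes. The named claudins past the filter (CLDN1, CLDN4, CLDN6 and CLDN12) were all above 0.

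For other membrane proteins of the tight junction, the median GO difference of the 6 genes past the filter was 0.07. Above 0 lay 4 of them, against 51.1% of all genes, and 1 reached 1.5-fold on the higher side, against 1.91%. That gene was ESAM, an adhesion molecule of endothelium, at 0.59, from 6.58 in untreated cells, under the filter level, to 7.17, so it passed the filter only through the GO array. LSR, which marks corners where 3 cells meet, stood at 8.92, 9.50 and 9.02, a difference of 0.58. MARVELD2, which shares that position, stood at 0.03, and CXADR, the coxsackievirus and adenovirus receptor, at 0.11.

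Scaffold and polarity proteins had a median GO difference of 0.03 over 21 genes, 13 above 0 and 8 below, beside 51.1% of all genes above 0. Past 1.5-fold lay 0 of the 21, where 1.91% of all genes were higher and 4.23% lower by at least that size. WNK4, a kinase that acts on claudins in the kidney, stood at 0.58, TJAP1 at 0.30 and the polarity protein PARD6B at 0.28. TJP3, the relative of TJP1, stood at -0.22 against 0.36 for TJP1 itself.

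Among adherens junction genes, 10 of 16 were above 0 with GO, against 51.1% of all genes past the filter, and the median was 0.14. CDH2, the N-cadherin gene, stood at 9.56, 9.99 and 9.59, so both the epithelial and the neural cadherin had their highest value in the GO array. JUP (plakoglobin) stood at 0.44 and NECTIN2 at 0.44, while CTNNB1, which encodes the beta-catenin that binds the E-cadherin tail, stood at 0.04. The protocadherin CDHR2 of the brush border was the 1 gene of this list at least 1.5-fold lower, a size that 4.23% of all genes reached. It stood at -0.71, and EPCAM, an epithelial adhesion molecule, stood at -0.34.

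All 9 desmosome genes past the filter were above 0 with GO, with a median of 0.20 and a range from 0.15 to 0.69, also under each of 3 other scalings of the arrays, beside 51.1% of all genes above 0. DSP (desmoplakin), which links desmosomes to keratin filaments, stood at 10.30 in untreated cells, 10.99 with GO and 10.49 with rGO, and was the 1 gene of the list at least 1.5-fold higher. PERP stood at 0.30 and PKP2 at 0.21. The median of the 4 gap junction genes was -0.06, with GJB1, the main connexin of hepatocytes, at 0.04 and PANX1 at -0.17. Over the 6 lists of junction genes together, 40 of 63 genes past the filter were above 0 with GO and the median was 0.06. At least 1.5-fold higher were 2 (ESAM and DSP), of which ESAM passed the filter only through its GO value, and 1 was at least 1.5-fold lower (CDHR2). Of all genes past the filter, 51.1% were above 0, while 1.91% passed the 1.5-fold limit upward and 4.23% downward.

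**Figure D4:**
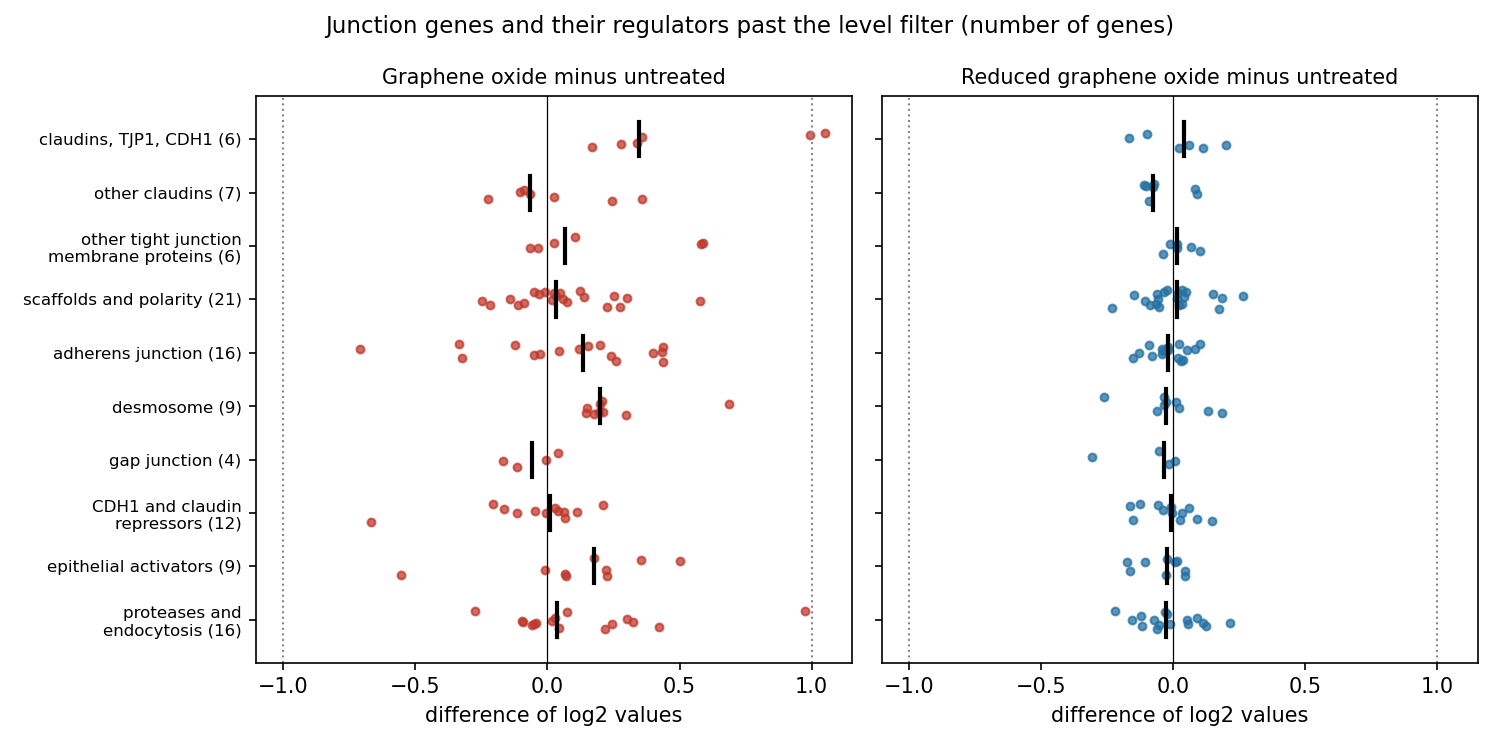
Difference of log2 values for genes past the level filter in each list (number of genes in brackets), 1 point per gene, with a black bar at the median and dotted lines at 2-fold. With GO the named genes have a median of 0.35 and the desmosome genes one of 0.20, and the other junction lists lie between -0.07 and 0.14; with rGO all medians shown lie between -0.08 and 0.04.

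Transcription factors that repress CDH1 and claudin genes had a median GO difference of 0.01 over 12 genes past the filter, 6 above and 6 below 0. Of all genes past the filter, 51.1% were above 0. SNAI1, SNAI2 and ZEB2 were under the filter in all 3 arrays, and ZEB1 stood at 8.40, 8.29 and 8.40. The histone deacetylase HDAC2, a partner of such repressors, was the 1 gene at least 1.5-fold lower, a size that 4.23% of all genes reached. It stood at 10.12 in untreated cells and 9.46 with GO, and its rGO difference was -0.13. TWIST1 stood at 0.21 and FOXC2 at -0.21.

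For factors that sustain epithelial genes, the median GO difference of 9 genes was 0.17, with 7 above 0, against 51.1% of all genes. Past 1.5-fold lay 0 of the 9, where 1.91% of all genes were higher and 4.23% lower by at least that size. ELF3, an epithelial ETS factor, stood at 7.09 in untreated cells, 7.60 with GO and 6.99 with rGO, a GO difference of 0.50. The liver factor FOXA2 stood at 0.35 and CEBPA, another liver factor, at -0.55. GRHL2 was under the filter in all 3 arrays.

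For junction proteolysis and endocytosis, the median GO difference of 16 genes was 0.04. Above 0 lay 10 of them, against 51.1% of all genes, and 1 gene reached 1.5-fold on the higher side, against 1.91%. That gene was SPINT1, a membrane inhibitor of the serine protease matriptase, which stood at 7.08 in untreated cells, 8.06 with GO and 7.19 with rGO. Its GO difference of 0.97 was close to that of CDH1. ST14, the gene of matriptase, stood at 0.05 and the protease gene PRSS8 at 0.32. ADAM10, a protease that sheds E-cadherin, stood at -0.27, and CBLL1, a ubiquitin ligase of E-cadherin, at 0.30.

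All 10 measured markers of the hepatocyte line were above the filter in every array, with ALB, the albumin gene, at 13.50, 13.49 and 13.57. Their GO differences ran both ways, 7 above 0 and 3 below, with a median of 0.22, beside 51.1% of all genes above 0. The fibrinogen chain gene FGB stood at -0.85 and the fetal AFP at -0.27, while the carrier protein gene TTR stood at 0.70. KRT18, a keratin of simple epithelia, stood at 11.32, 12.05 and 11.46, a GO difference of 0.73, and KRT8 had one of 0.35. Of 8 leukocyte markers, 6 were under the filter, PTPRC among them at 3.56 to 3.76, and CD68 and LYZ were above it, with GO differences of 0.38 and 0.20. CD68 stood at 9.61 in untreated cells, 9.98 with GO and 9.51 with rGO, and LYZ at 13.23, 13.43 and 13.38. The median over the 8 leukocyte markers was 6.13 in untreated cells, 5.85 with GO and 5.91 with rGO. Of 10 fibroblast, stellate and endothelial markers, 3 had a mean past the filter, and the median over the 10 was 5.88, 5.73 and 5.79. Of 8 mesenchymal markers, 4 passed, with a median over the 8 of 6.55, 6.51 and 6.50. Among the markers past the filter, GO differences were above 0 in 2 of 2 of the leukocyte list (median 0.29), 2 of 3 of the fibroblast, stellate and endothelial list (median 0.13) and 3 of 4 of the mesenchymal list (median 0.18). The share above 0 over all genes past the filter was 51.1%. PDGFRB stood at 0.33 and ACTA2 at 0.13, and the mesenchymal CDH2, FN1 and SPARC stood at 0.44, 0.22 and 0.15, while COL1A1 stood at -0.07 and S100A4 at -0.02. VIM, the vimentin gene, was under the filter, at 5.06 or lower in all 3 arrays. The part of other cells in the junction values was not tested.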

How the data were processed

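The authors' deposited log2 expression values for 33297 probe sets on 3 arrays were used as given. Per the submitters' processing notes RMA and MAS5 were named, with no role or version. The medians were near-equal (6.65, 6.63 and 6.66 for control, GO and rGO), as in values normalised between arrays. That normalisation is inferred from the medians, and any further scaling is unknown. Build and annotation were not given in the sources used here. Probe sets were named from the platform annotation: 19460 had 1 symbol, 1754 several and 12083 none listed, and those without a single symbol were left out. A gene was represented by its probe set with the highest mean.

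Differences of log2 values were counted at 2-fold and 1.5-fold, with no test, since each group held 1 array. The members and the 13 other gene lists were chosen with earlier results of these data known. Genes named were all members, up to 3 genes of each list with the largest GO difference, and the 5 genes nearest to CDH1 and to CLDN6; other genes of the lists serve as examples and were picked with their values in view. The alternatives tried were median centring, quantile normalization, a loess of span 0.3, no filter, a 60th percentile filter, the mean of probe sets, 1.5-fold and 3-fold sizes and the mean over members. The code of the size rule was checked on simulated data with effects well away from 2-fold, which says nothing of genes near that size. Python 3.11.15, numpy 2.4.6, pandas 2.3.3, statsmodels 0.14.6 and matplotlib 3.10.9 were used.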

Additional observations from a re-analysis of the deposited data

How the results depend on the processing

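The count of genes at least 2-fold higher with GO was 1 as reported and 2 after quantile normalization or median centring, because CDH1 crossed the size of 2-fold (its difference ran from 0.98 to 1.02 over the scalings). The count was also 2 at 1.5-fold and was 0 at 3-fold. The median GO difference was 0.35, and the mean over the same 6 genes was 0.53, drawn up by CLDN6 and CDH1. Of 102 recomputed values, these 5 moved: a count by over 1.5 times, or a difference by more than the robust SD of 1 probe set. Each of the 72 recomputed single-gene differences moved by less than the robust SD of 1 probe set, and none changed sign; CLDN6 with GO ran from 1.04 to 1.07. The median of all genes moved by less than 0.1 under every scaling. Some counts above 0 with GO changed after median centring. Scaffold and polarity genes went from 13 to 14 of 21, repressors from 6 to 7 of 12 and epithelial activators from 7 to 8 of 9. Hepatocyte markers went from 7 to 8 of 10 and gap junction genes from 1 to 2 of 4. After quantile normalization the protease and endocytosis genes went from 10 to 11 of 16. The counts of the remaining lists were the same under each scaling. Among the rGO medians near 0, that of the scaffold and polarity genes turned from 0.01 to -0.01 after quantile normalization, and that of the repressors from -0.01 to 0.004 after the loess. Leaving out an array was not possible, since each group held 1. The level filter is a percentile of the gene means, so whether signals under it stand above background was not tested.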
